A study of Drosophila melanogaster with 16 samples.

Results

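The p24 proteins are small, single-pass membrane proteins that travel between the endoplasmic reticulum (ER) and the Golgi in COPII- and COPI-coated vesicles and act there as cargo receptors, above all for proteins held in the membrane by a glycosylphosphatidylinositol (GPI) anchor. They work as complexes that draw on the subfamilies alpha, beta, gamma and delta, and in flies members of the family are needed for secretion of the Wnt ligand Wingless and for signalling through the Dpp receptor Thickveins. The genes described are the 7 p24 genes p24-1, p24-2, CHOp24, bai, eca, opm and loj, of 13754 genes in each table. They were taken by family membership, and p24-2 was the reason for taking them: it had already been seen to be high and variable in both mutants of the series. Its values are therefore given as a description with no test, and tests are given for the other 6 members. All 7 had a mean normalised count of at least 10 in both tables and so passed the filter on low values.

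RNA was measured in 16 single Drosophila melanogaster embryos at stage 16, collected 15 to 16 h after egg laying. Asx0 embryos (n = 5) lacked zygotic function of Asx, the partner that activates the deubiquitinase Calypso in the Polycomb complex PR-DUB. They carried the null allele Asx22P4 and were the GFP-negative offspring of w; F40 F42D y+ Asx0 parents over a CyO twi-Gal4 UAS-GFP balancer, so that Asx product laid down by the mother was not removed. SceI48A embryos (n = 4) had only a catalytically inactive form of Sce, the histone H2A ubiquitin ligase of PRC1, both from the mother and from their own genome. That form came from an inserted transgene (VK37) in a Sce0 background, the wild-type rescue copy having been excised with nos-Gal4VP16 and UAS-FLP. The wild-type embryos were Oregon-R, with 3 embryos in the table of Asx0 and 4 other embryos in the table of SceI48A. The comparisons ask which transcripts change without the H2A deubiquitinase and without the H2A ubiquitin ligase. The mutant stocks and Oregon-R differ in more than the mutated gene, so stock and mutation cannot be told apart. Nothing in the labels says that embryos of a group came from different parents, and p-values measure only the spread between these embryos.

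Values are log2 normalised counts, normalised by the authors within each table, so that levels are compared only between embryos of the same table. Depth is unknown, since the tables hold no library totals. Asx RNA was 10.16 to 10.37 in Asx0 and 10.25 to 10.35 in its wild type, and Sce RNA was 9.08 to 9.19 in SceI48A and 8.93 to 9.11 in its wild type. Neither allele removes the RNA, so these levels check no label. The neuron markers (elav, nSyb, brp) and muscle markers (Mhc, Mef2, up) were all detected at 11.52 or more in every embryo, and the larval glue gene Sgs3 had an authors' mean under 1. Of the maternal RNAs, osk had authors' means of 3.40 and 8.72 in the Asx0 and SceI48A tables, bcd 18.1 and 66.3, and nanos 36.1 and 64.1. In whole embryos, fewer cells of a type and less RNA per cell cannot be told apart. Summed marker levels (linear normalised counts) did not overlap between mutant and wild type for midgut (GATAe, Jon65Aiii, lab) in Asx0, at 1863 to 2188 against 2351 to 2946. In SceI48A they did not overlap for salivary gland (sage, fkh, Sgs3), at 2657 to 3138 against 1763 to 2633, nor for maternal RNA, at 132 to 149 against 108 to 125. The sums for neuron, muscle, epidermal cuticle and hemocyte overlapped in both tables. Those for salivary gland and maternal RNA overlapped in Asx0, and that for midgut in SceI48A. Of all single genes tested, 20.1% in the Asx0 table and 18% in the SceI48A table had no overlap, so nothing is read from these sums. By single genes, the gut protease Jon65Aiii fell by 2.22 in Asx0 (limma, adjusted p = 2.87e-06) and fell by 1.09 in SceI48A (adjusted p = 0.0281), while GATAe and lab did not pass in either table (-0.08 and -0.09 in Asx0, 0.20 and -0.22 in SceI48A). The hemocyte receptor NimC1 fell by 0.50 in Asx0 (adjusted p = 0.0169) and fell by 1.08 in SceI48A (adjusted p = 0.00021), sage rose by 0.35 in Asx0 (adjusted p = 0.0112), and bcd rose by 0.32 in SceI48A (adjusted p = 0.0264). No other marker of a cell type or of maternal RNA passed, and the part of these cell types in the p24 levels was not tested. Of w, y and ry, looked at as genes that may differ between stocks, w fell by 1.39 (limma, adjusted p = 9.7e-07) and ry rose by 1.32 (adjusted p = 1.27e-06) in Asx0. In SceI48A w rose by 1.29 (adjusted p = 0.00115) and y rose by 2.37 (adjusted p = 0.00907). y in Asx0 and ry in SceI48A did not pass.

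p24-2 belongs, with eca, to the alpha subfamily. In the release 6 assembly of the genome (dm6) p24-2 (FBgn0053105) lies on the minus strand of chromosome arm 3R at chr3R:9687402-9692794, and eca (FBgn0069242) lies on the same strand at chr3R:9684469-9685476. The start sites of the 2 genes are 7.32 kb apart, with the gene CG18542 between them. p24-2 encodes 244 amino acids in 732 coding bases and eca encodes 216 in 648, and in both genes the first coding exon has 133 bases and the first intron has 62.

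The annotation places p24-2 almost wholly within exons of a gene of another family, Unc-115b (FBgn0260463, chr3R:9687060-9692775, minus strand). Unc-115b and its neighbour Unc-115a (FBgn0051352, chr3R:9694386-9705417, minus strand) encode actin-binding LIM-domain proteins of 784 and 844 amino acids that act in axon guidance. p24-2 has 2 transcript models. The long one (10 exons, 3535 bases) has the same exons, base for base, as 1 of the 6 models of Unc-115b, and differs from it only in which stretch is read as coding. The short one has 830 bases in 2 exons, of which 811 (97.7%) also lie in exons of that 1 Unc-115b model. All 732 coding bases of p24-2 lie in exons of the same model. The other Unc-115b models start at 0.953 or 0.982 kb from the p24-2 start site, past the end of the short p24-2 model at 0.891 kb. The coding bases of p24-2 (0.095 to 0.888 kb) thus come before those of Unc-115b, which start at 1.052 kb or later. Of the 3554 exonic bases of p24-2 only 19 are outside all Unc-115b exons. Seen from the other gene, 3535 of 3984 exonic bases of Unc-115b (88.7%) are shared and 449 are not. A read from the shared stretch fits both genes and both lie on one strand, so the split of reads between p24-2 and Unc-115b rests on the authors' estimate. For the 2 models with the same exons, reads cannot tell the genes apart at all. The 2 genes are therefore described side by side.

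**Figure D1:**
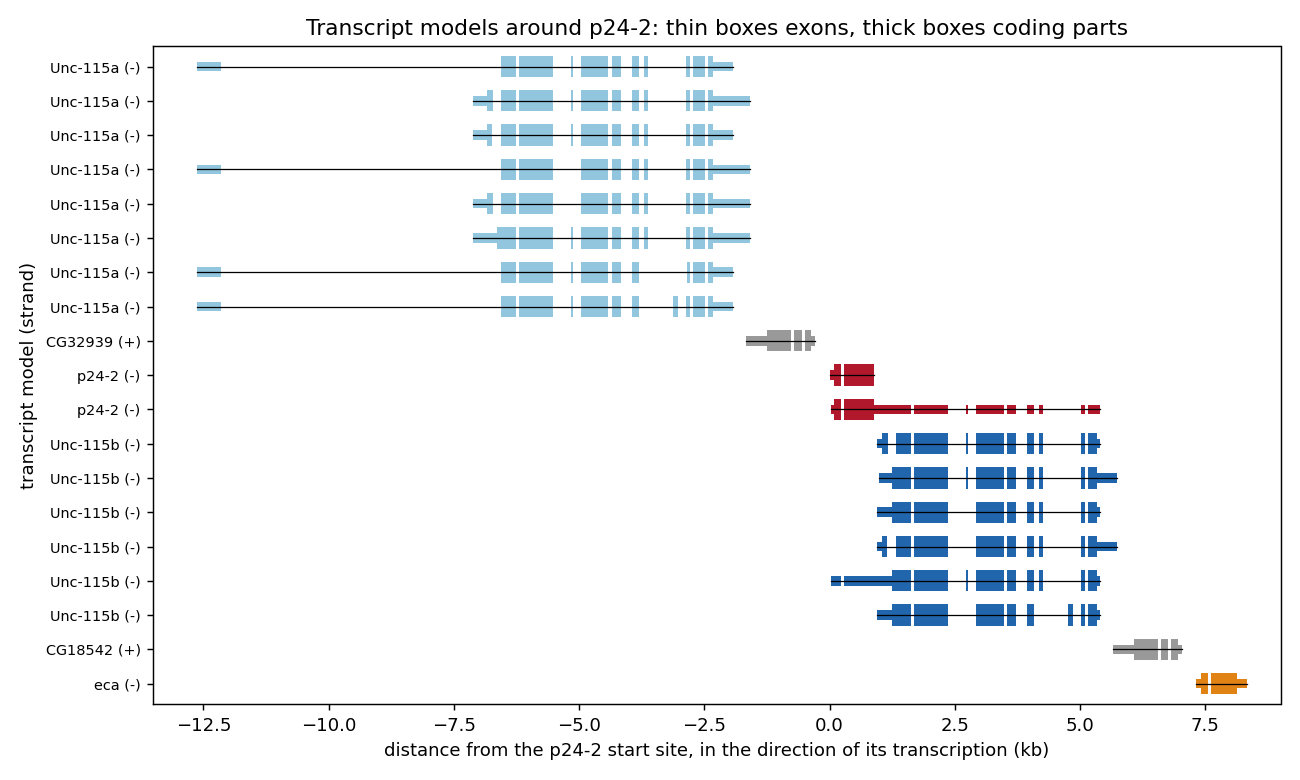
Transcript models of p24-2, Unc-115b, eca and the genes next to them, against distance from the p24-2 start site in kb, with positive values in the direction of p24-2 transcription. Thin boxes are exons and thick boxes their coding parts. The long p24-2 model and 1 Unc-115b model have the same exons, and eca starts 7.32 kb further on.

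In Asx0 embryos p24-2 was at 6.58, 10.11, 10.98, 9.71 and 9.80 (log2 normalised count, replicates 1 to 5), and in their wild type at 6.38, 6.26 and 6.15. Replicates 2 to 5 were far above every wild-type embryo, whereas replicate 1 was only just above them, and the groups did not overlap. The means were 9.44 ± 1.67 (SD, n = 5) and 6.26 ± 0.11 (SD, n = 3), a difference of 3.17 on the log2 scale. In SceI48A embryos p24-2 was at 9.42, 10.43, 9.63 and 7.04 (replicates 1 to 4), and in their wild type at 5.88, 6.61, 6.03 and 6.20. Here, too, the groups did not overlap, and a single mutant embryo, replicate 4, lay much nearer to wild type than the other 3. The means were 9.13 ± 1.46 (SD, n = 4) and 6.18 ± 0.32 (SD, n = 4), a difference of 2.95. The members' background for groups without overlap was 20.1% of 10212 genes tested in the Asx0 table and 18% of 10369 in the SceI48A table, and nothing is read from it for p24-2, which was chosen on these values.

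p24-2 also spread widely between mutant embryos, a trait it was chosen for, so its ranks are a description only. Its SD among Asx0 embryos ranked 1 of 10212 genes and its SD among SceI48A embryos ranked 2 of 10369, where the median gene had an SD of 0.08 and 0.11. An SD above 1 was reached by 2 genes in Asx0 and by 5 in SceI48A. The deposited log2 values understate the extremes of such a gene. Turned back to linear counts, they averaged 0.635 of the authors' own mean for p24-2 in the Asx0 table and 0.53 in the SceI48A table, against 0.993 to 0.999 for the other 6 members. The differences of 3.17 and 2.95 are thus on a shrunken scale.

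**Figure D2:**
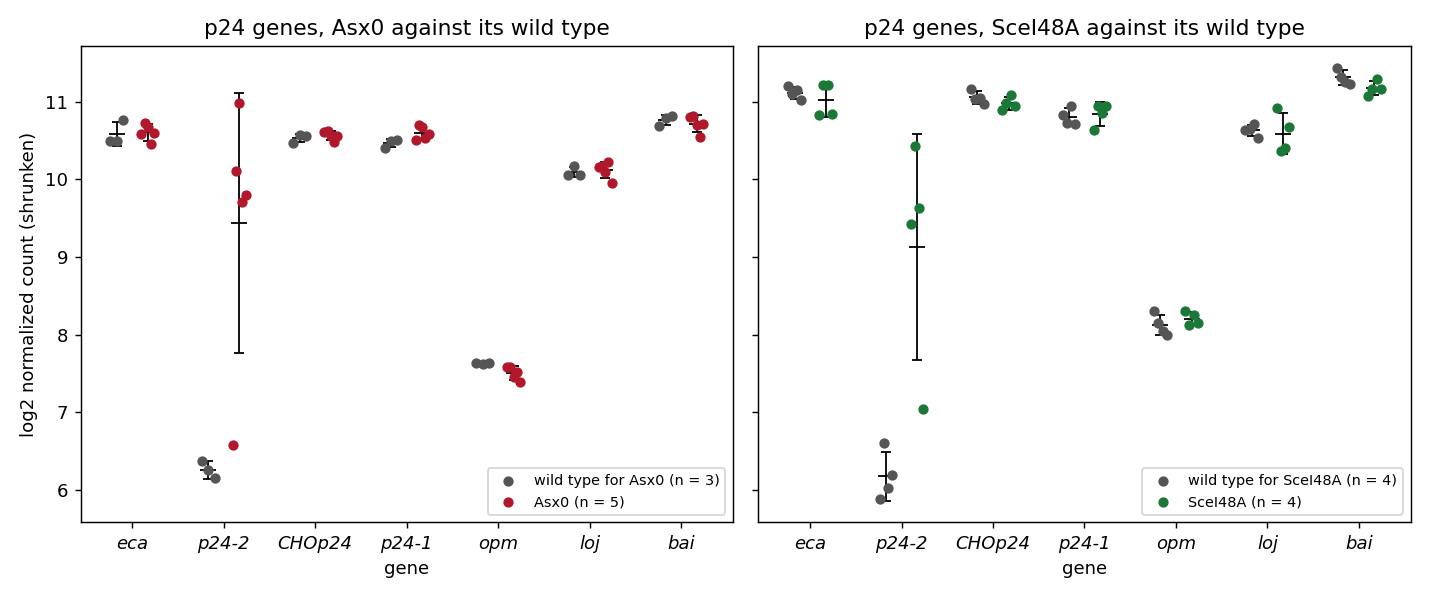
Log2 normalised count (shrunken scale) of the 7 p24 genes in each embryo, Asx0 table on the left and SceI48A table on the right, with coloured points for mutant and grey for wild-type embryos and a black bar for the mean ± SD. p24-2 spreads from 6.58 to 10.98 in Asx0 and from 7.04 to 10.43 in SceI48A, while the other 6 genes stay within narrow ranges.

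Unc-115b was high in the same embryos as p24-2. It was at 6.76, 9.25, 10.17, 9.22 and 9.12 in Asx0 (replicates 1 to 5) and at 7.55, 7.17 and 7.25 in wild type. The 4 mutant embryos with high p24-2 had high Unc-115b, but replicate 1 lay below all 3 wild-type embryos. The difference of 1.58 ± 0.57 (SE) did not pass the test (limma, Benjamini-Hochberg adjusted p = 0.103). In SceI48A it was at 8.33, 9.78, 9.09 and 5.96 (replicates 1 to 4), and in wild type at 5.80, 6.05, 6.40 and 6.07. Again 3 mutant embryos were above all wild-type embryos, and replicate 4 fell among them. The difference of 2.21 ± 0.60 (SE) passed the test by a small margin (adjusted p = 0.045). That call was lost when any 1 embryo other than SceI48A replicate 4 was left out, and in 10 of 19 alternative settings in all, with a highest adjusted p of 0.165. The order of the 4 SceI48A embryos was the same for both genes. Unc-115b shares most of its exonic bases with p24-2, which was chosen for its values in these embryos. The p-values of Unc-115b therefore draw on much the same signal and are no separate evidence of a change.

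The log2 value of p24-2 minus that of Unc-115b did not overlap between mutant and wild type in the Asx0 table. Both values were shrunken gene by gene, so this difference is not the split of reads itself. p24-2 minus Unc-115b was -1.17, -0.92 and -1.09 on the log2 scale in wild type, and -0.18, 0.86, 0.81, 0.49 and 0.68 in Asx0. In the SceI48A table it was 0.08, 0.56, -0.37 and 0.14 in wild type and 1.10, 0.65, 0.53 and 1.08 in SceI48A, where replicate 3 lay just under the highest wild-type embryo. The deposited values were also added together for both genes on the linear scale. They had been shrunken gene by gene (turned back to linear counts, Unc-115b averaged 0.737 of the authors' mean in the Asx0 table and 0.499 in the SceI48A table), so the sum still depends in part on the split. The log2 of the sum was 7.68, 10.74, 11.63, 10.49 and 10.50 in Asx0 against 8.08, 7.79 and 7.80 in wild type. In SceI48A the sum was 9.98, 11.14, 10.38 and 7.60 against 6.84, 7.36, 7.23 and 7.14, with no overlap. So the sum kept the high embryos high, but Asx0 replicate 1 was then the lowest of its table, and the Asx0 groups overlapped. The differences of the sum were 2.32 and 2.63. The sum contains the p24-2 values for which the gene was chosen, so it is a description only.

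**Figure D3:**
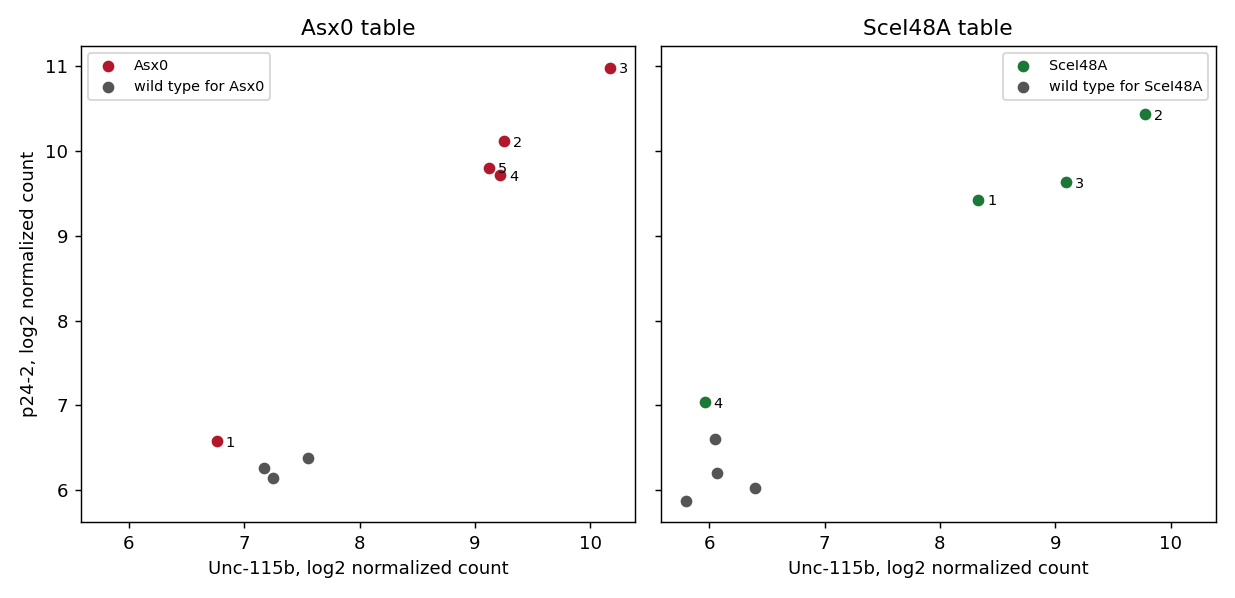
p24-2 (vertical axis) against Unc-115b (horizontal axis) in each embryo, both as log2 normalised counts, with mutant embryos in colour and numbered by replicate and wild-type embryos in grey. Asx0 replicate 1 (6.76, 6.58) and SceI48A replicate 4 (5.96, 7.04) lie near the wild-type embryos and the other 7 mutant embryos lie well apart from them.

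The level of the sex-specific gene msl-2 did not go with p24-2 in the same way in both tables. msl-2, a subunit of the male dosage compensation complex, was at 8.31, 8.99, 9.16, 9.13 and 9.14 in Asx0, so that the embryo with low p24-2 (replicate 1) was the only one with low msl-2. In SceI48A it was at 10, 9.03, 9.97 and 9.81, and there the embryo with low msl-2, replicate 2, had the highest p24-2. Wild-type embryos ranged from 8.24 to 9.09 and from 8.76 to 9.88 for msl-2, and all had low p24-2. With the difference between msl-2 and Sxl, the female-specific splicing regulator, as a covariate, the p24-2 difference was 2.27 in Asx0 and 2.95 in SceI48A.

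The second alpha member, eca (eclair), takes part in Wingless secretion and in Thickveins signalling. Its start site is 7.32 kb from that of p24-2, and it was high in every embryo. It was at 10.58, 10.73, 10.68, 10.45 and 10.60 in Asx0 and at 10.49, 10.50 and 10.76 in wild type, and the groups overlapped. The difference was 0.03 ± 0.08 (SE; 95% interval -0.15 to 0.20; limma, adjusted p = 0.873). In SceI48A it was at 10.83, 11.21, 11.21 and 10.84 against 11.20, 11.10, 11.15 and 11.02, with 2 mutant embryos above and 2 below all wild-type embryos. The difference was -0.09 ± 0.10 (95% interval -0.31 to 0.13; adjusted p = 0.615).

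CHOp24 (FBgn0029709, chrX:4540908-4542506, plus strand), the beta member and also needed for Wingless secretion, was at 10.61, 10.62, 10.56, 10.48 and 10.56 in Asx0 and at 10.47, 10.57 and 10.56 in wild type. In SceI48A it was at 10.90, 10.98, 11.09 and 10.95 against 11.17, 11.03, 11.05 and 10.97. The groups overlapped in both tables. The differences were 0.03 (95% interval -0.09 to 0.14; limma, adjusted p = 0.779) and -0.08 (-0.24 to 0.08; adjusted p = 0.561).

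The gamma subfamily has 3 genes. p24-1 (FBgn0030341, chrX:11850909-11852530, minus strand) was at 10.51, 10.70, 10.68, 10.53 and 10.58 in Asx0 and at 10.41, 10.49 and 10.51 in wild type, so that the groups overlapped only at their edges. The difference of 0.13 (95% interval from just under zero to 0.26; limma, adjusted p = 0.2) did not pass the test. In SceI48A p24-1 was at 10.63, 10.95, 10.85 and 10.95 against 10.83, 10.73, 10.95 and 10.72, a difference of 0.04 (-0.16 to 0.23; adjusted p = 0.825).

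opm (opossum; FBgn0264389, chrX:15064836-15066432, minus strand), the gamma member needed for Wingless secretion, was the only other member whose groups did not overlap. It was at 7.58, 7.59, 7.45, 7.52 and 7.39 in Asx0 and at 7.63, 7.62 and 7.63 in wild type. The wild-type embryos stood within 0.01 of each other (SD) just above the highest mutant embryo, and the difference of -0.12 (95% interval -0.25 to 0.01; limma, adjusted p = 0.234) did not pass the test. In SceI48A opm was at 8.31, 8.12, 8.25 and 8.15 against 8.30, 8.15, 8.05 and 8.0, with overlap and a difference of 0.09 (-0.10 to 0.27; adjusted p = 0.571).

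loj (logjam; FBgn0061492, chr3L:6094987-6096517, plus strand), the third gamma gene, is needed in females for egg laying. It was at 10.16, 10.17, 10.10, 10.23 and 9.96 in Asx0 and at 10.06, 10.17 and 10.06 in wild type, a difference of 0.03 (95% interval -0.12 to 0.17; limma, adjusted p = 0.838). In SceI48A it was at 10.92, 10.36, 10.40 and 10.68 against 10.63, 10.65, 10.71 and 10.53, a difference of -0.04 (-0.29 to 0.21; adjusted p = 0.861). Its SceI48A embryos lay on both sides of the wild-type range.

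bai (baiser; FBgn0045866, chr3R:25039374-25040443, plus strand), the delta member, acts with eca in Thickveins signalling. It was at 10.81, 10.82, 10.70, 10.55 and 10.71 in Asx0 and at 10.69, 10.79 and 10.82 in wild type, a difference of -0.05 (95% interval -0.20 to 0.10; limma, adjusted p = 0.686). In SceI48A it was at 11.07, 11.16, 11.29 and 11.17 against 11.44, 11.32, 11.26 and 11.23. There 3 of 4 mutant embryos were below all wild-type embryos, and the difference of -0.14 (-0.31 to 0.02; adjusted p = 0.269) did not pass the test.

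Across the 6 members other than p24-2, none passed the limma test in Asx0 or in SceI48A, and none had an unadjusted p under 0.05. Of all genes tested, 11.3% passed in the Asx0 table and 7.48% in the SceI48A table. The share of all genes with an unadjusted p under 0.05 was not taken, and it is at least as large as these shares. Counts at an unadjusted p, here and below, are thus a description, and nothing is read from them. The groups did not overlap for 1 of 6 members in Asx0 and for 0 of 6 in SceI48A, against 20.1% and 18% of all genes. The median difference of the 6 was 0.03 (range -0.12 to 0.13) in Asx0 and -0.06 (range -0.14 to 0.09) in SceI48A. The 95% intervals reach at most 0.26 above and 0.25 below zero in Asx0, and 0.27 above and 0.31 below in SceI48A, so that for these genes a change of the size seen in p24-2 lies outside them on the same shrunken scale.

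**Figure D4:**
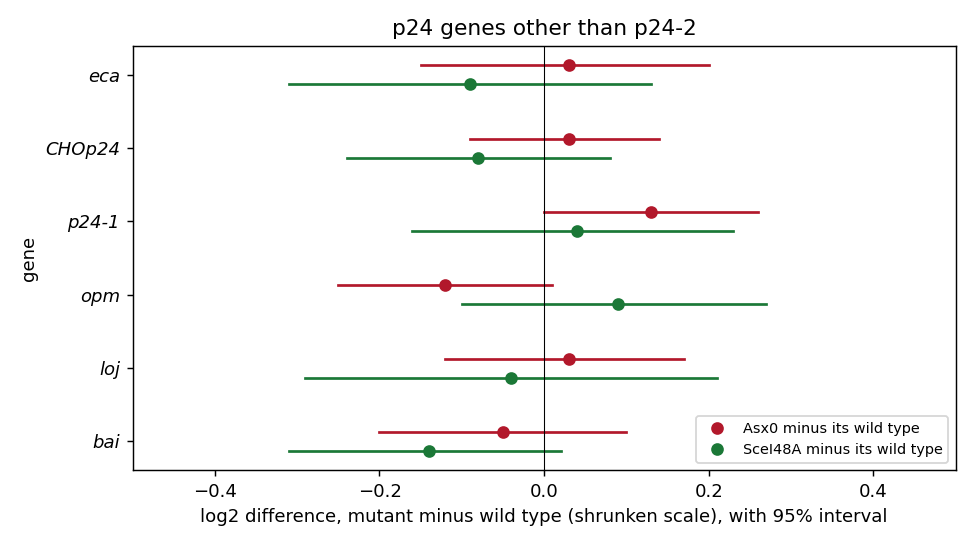
Log2 difference (mutant minus wild type of the same table, shrunken scale) of the 6 p24 genes other than p24-2, with the estimate as a point and its 95% interval as a line, Asx0 in red and SceI48A in green. Every interval includes zero, and together they reach from -0.31 to 0.27.

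Levels can be set between genes only per length, here as linear normalised counts per kb of exon within a table. In the Oregon-R embryos of the Asx0 table bai was highest (2050 to 2244), followed by eca (1515 to 1835), CHOp24 (1206 to 1301), loj (904 to 977) and p24-1 (881 to 947), and opm was far lower (128 to 129). The ranges of loj and p24-1 overlapped and those of the other neighbours in this order did not. p24-2 was the lowest member at 20.0 to 23.5. In the wild-type embryos of the SceI48A table the order was bai (2983 to 3440), eca (2197 to 2492), CHOp24 (1711 to 1971), loj (1257 to 1421), p24-1 (1094 to 1280), opm (167 to 206) and p24-2 (16.6 to 27.5). Here loj and p24-1 again overlapped, and no other neighbours did.

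In the mutants p24-2 was above opm per kb in 4 of 5 Asx0 embryos and in 2 of 4 SceI48A embryos. By this measure, on shrunken values over all exonic bases, p24-2 stayed below the other 5 members in every embryo. It had 27.0 to 568 normalised counts per kb in Asx0 (median 251) and 37.0 to 388 in SceI48A (median 208). opm had 110 to 125 and 182 to 207 there, and p24-1 944 to 1078 and 1029 to 1284. The value for p24-2 divides by all 3554 exonic bases, and it would be higher if the reads came from the short model of 830 bases. The place of p24-2 among the members in the mutants depends on that choice of length. By the authors' means over all embryos of a table, which are not shrunken, p24-2 had 287 and 218 normalised counts per kb and opm 123 and 189.

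Of the genes within 50 kb of the p24-2 start site, Unc-115b had 7 mutant embryos more than 1 above the wild-type mean on the shrunken log2 scale, and no other had an embryo past that mark, CG32939 coming next in a single SceI48A embryo. The annotation has 21 genes there, of which 17 were in the tables. Of the 14 tested in Asx0 without Unc-115b, 1 rose and 1 fell, with a median difference of 0.01, and of the 15 tested in SceI48A none passed (limma; 3 at an unadjusted p under 0.05), with a median of 0.05. FoxP, a forkhead transcription factor gene, rose in Asx0 by 0.42 ± 0.08 (SE; adjusted p = 0.00493), from 7.46 to 7.55 in wild type to 7.81 to 8.14. alphaTub85E, an alpha-tubulin gene, fell by 0.33 ± 0.06 (adjusted p = 0.0065), from 10.98 to 11.20 to 10.66 to 10.83. Their start sites are at -38.1 and -40.5 kb from that of p24-2, where negative values are upstream. All 5 Asx0 embryos lay above wild type for FoxP and below it for alphaTub85E, including the embryo with low p24-2. Of all genes tested in Asx0, 5.19% rose and 6.15% fell, and in SceI48A 3.1% rose and 4.39% fell.

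The nearest genes on each side stayed close to their wild-type levels in most embryos. CG18542, which starts 7.03 kb downstream on the other strand, was at 6.49, 6.75, 7.0, 6.80 and 6.77 in Asx0 against 6.66, 6.44 and 6.65 (difference 0.18; limma, adjusted p = 0.285), and in SceI48A at 6.33, 7.19, 6.93 and 6.78 against 6.68, 6.82, 6.72 and 6.73 (0.07; adjusted p = 0.799). Unc-115a, with its start at -12.6 kb, was at 12.53 to 12.78 in Asx0 against 12.45 to 12.60 (0.11; adjusted p = 0.317). In SceI48A all 4 embryos (12.87 to 13.05) were above wild type (12.61 to 12.85), with a difference of 0.22 that did not pass the test (adjusted p = 0.0985). CG32939, with its start at -0.28 kb on the other strand, was listed at 0 in every embryo of the Asx0 table. In the SceI48A table it was at 4.96 in SceI48A replicate 1 and at 4.0 to 4.02 in all other embryos, and these values are strongly shrunken, averaging 0.51 of the authors' mean when turned back to linear counts. That embryo also had the lowest CG9444 (8.80, against 10.30 to 10.64 in the other SceI48A embryos and 9.99 to 10.37 in wild type), a gene 8.53 kb downstream that was singled out after its values were seen. In the gene models CG18542 overlaps the end of Unc-115b and CG32939 the end of Unc-115a, each on the opposite strand. Since the library kit does not mark strand, reads from these overlaps cannot be told apart. The exons of CG32939 and CG18542 also match in length and spacing to within rounding. Unc-115a and Unc-115b share the lengths of the first coding exon (118 bases) and first intron (149 bases). The same holds for p24-2 and eca, at 133 and 62 bases. Sequences were not compared. Whether reads of 42 bases can be assigned between these genes was therefore not tested, and this includes CG32939 at 0 in the Asx0 table.

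**Figure D5:**
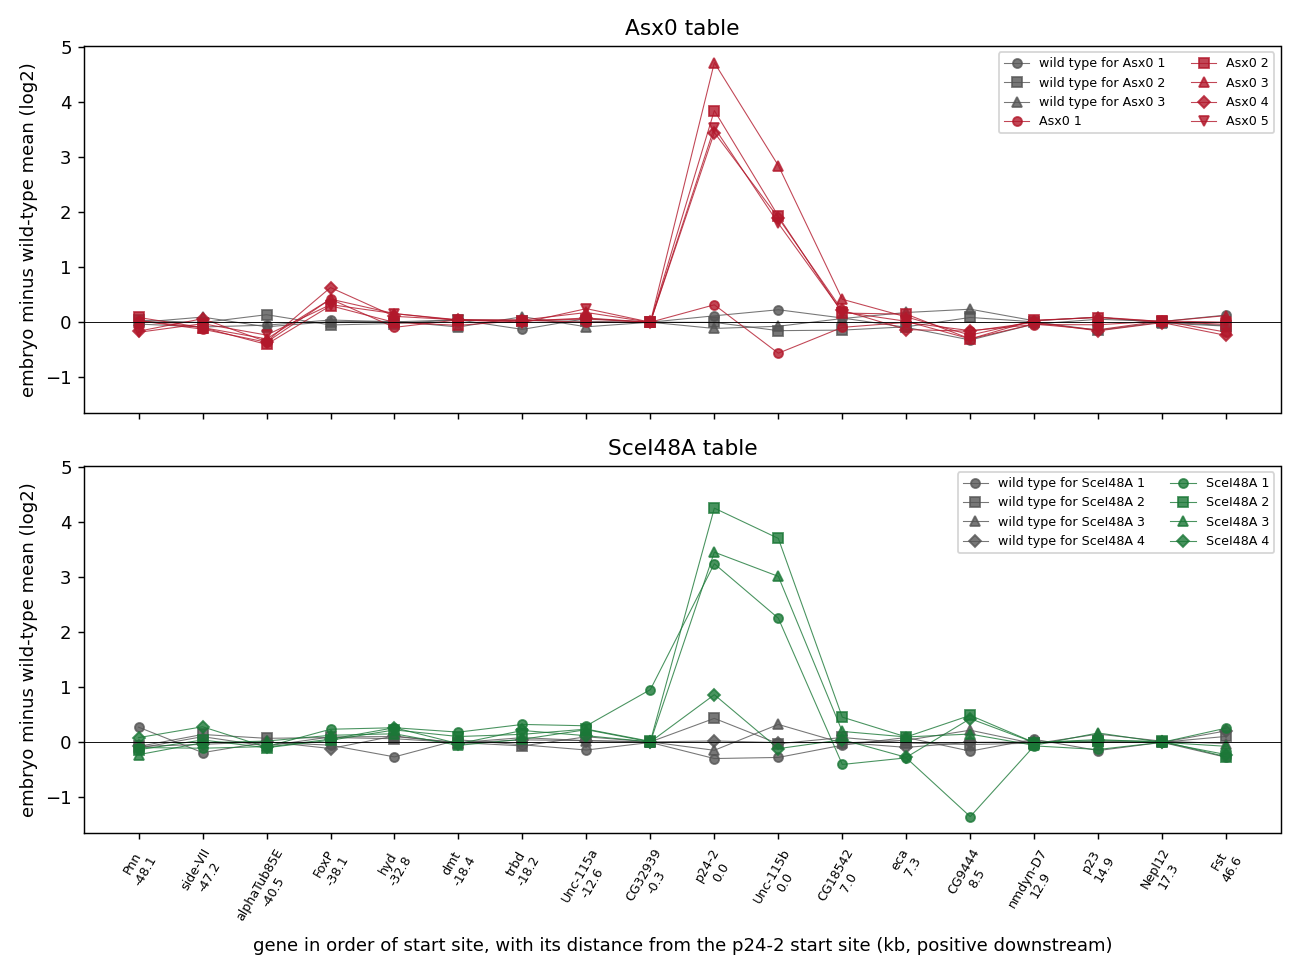
Log2 normalised count (shrunken scale) of each embryo minus the wild-type mean of its table, for the genes within 50 kb of p24-2 in order of start site, with the distance from the p24-2 start in kb under each name. Coloured lines are mutant embryos and grey lines wild-type embryos, and CG32939 is listed at 0 throughout the Asx0 table. p24-2 and Unc-115b stand more than 1 above the wild-type mean in 7 mutant embryos, and CG32939 stands out in SceI48A replicate 1 on values shrunken to 0.51 of the authors' mean.

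Over the 8 embryos of each table, the gene most like p24-2 was Unc-115b, with a Pearson r of 0.974 in the Asx0 table and 0.967 in the SceI48A table. Almost all exonic bases of p24-2 also lie in Unc-115b exons, where reads are split by estimate. The high r of Unc-115b is therefore a description only. Genes were ranked by the smaller r of both tables, over 10068 genes tested in both. The points share the split into mutant and wild type, so any gene that differs between them scores high. Teh4, an auxiliary subunit of the voltage-gated sodium channel, followed with 0.966 and 0.896, then CG8478 (0.849 and 0.942), bcd, the maternal anterior determinant (0.846 and 0.978), and pps, a gene of RNA processing (0.887 and 0.841). Their ranges were far smaller than that of p24-2: Teh4 was at 9.74 to 9.97 in Asx0 against 9.61 to 9.68, and bcd was at 5.83 to 6.17 in SceI48A against 5.63 to 5.81. These genes were picked by a measure that includes the split into mutant and wild type, so their differences are a description with no test: 0.23 and 0.14 for Teh4 in the Asx0 and SceI48A tables, 0.15 and 0.15 for CG8478, 0.06 and 0.32 for bcd, and 0.10 and 0.25 for pps. No other p24 gene followed p24-2 in both tables. p24-1 had an r of 0.83 in the Asx0 table and 0.02 in the SceI48A table, opm -0.765 and 0.353, bai -0.434 and -0.585, eca 0.214 and 0.037, CHOp24 0.056 and -0.362, and loj 0.028 and -0.313.

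The wider pathway was described through 70 listed genes of the early secretory route, of which 66 were tested. In Asx0 4 of 66 fell and none rose (median -0.01), where 6.15% of all genes fell and 5.19% rose. In SceI48A 2 of 66 rose and none fell (median 0.04), where 3.1% of all genes rose and 4.39% fell.

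Among the 11 genes of the COPI coat, which carries p24 proteins back to the ER, and its Arf1 cycle, epsilonCOP fell in Asx0. It was at 9.72, 9.74, 9.73, 9.57 and 9.67 against 9.95, 10.03 and 9.90 (fell by 0.27 ± 0.06 (SE); limma, adjusted p = 0.0123). The call held in 17 of 19 settings and was lost without wild-type replicate 2 and with a replicate block. In SceI48A epsilonCOP was also below wild type in all 4 embryos (10.32 to 10.43 against 10.45 to 10.82), but the difference of -0.20 did not pass (adjusted p = 0.175). betaCOP, the next COPI subunit by adjusted p, differed by 0.15 (0.0698) and 0.07 (0.614).

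None of the 8 genes of the COPII coat and ER exit sites passed in either table by limma, with 2 at an unadjusted p under 0.05 in Asx0 and 0 in SceI48A. Nearest to a call was Sec31, the outer coat subunit, with -0.15 (adjusted p = 0.0681) in Asx0 and 0.19 (adjusted p = 0.21) in SceI48A. Likewise none of the 5 other ER-Golgi cargo receptors passed, and none had an unadjusted p under 0.05. ergic53, the lectin cargo receptor, differed by -0.07 and 0.09 (adjusted p = 0.408 and 0.518), and cnir (cornichon related) by 0.09 in SceI48A (adjusted p = 0.489).

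Of 15 ER chaperone and unfolded protein response genes, 2 fell in Asx0 and none passed in SceI48A by limma (4 at an unadjusted p under 0.05). CaBP1, a protein disulphide isomerase, was at 11.43 to 11.57 in Asx0 (median 11.51) against 11.82 to 11.90 in wild type, and fell by 0.36 ± 0.05 (SE; adjusted p = 0.00098). crc, the fly ATF4 transcription factor, was at 13.08 to 13.20 (median 13.12) against 13.41 to 13.52 and fell by 0.33 ± 0.05 (adjusted p = 0.00162). Both calls held in all 19 alternative settings. In SceI48A they differed by -0.07 and 0.02 (adjusted p = 0.757 and 0.875). Herp, a gene of ER-associated degradation, was below wild type in all 5 Asx0 embryos without passing (-0.12; adjusted p = 0.15), and Cnx99A, the lectin chaperone calnexin, was above wild type in all 4 SceI48A embryos without passing (0.26; adjusted p = 0.0712).

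GPI-anchored proteins are the best known cargo of p24 complexes. Of 23 genes of anchor synthesis and remodelling, none passed in Asx0 by limma (2 at an unadjusted p under 0.05) and 2 rose in SceI48A. PIG-A, the catalytic subunit for the first sugar of the anchor, was at 7.58, 7.67, 7.44 and 7.56 in SceI48A against 7.38, 7.22, 7.19 and 7.27, and rose by 0.30 ± 0.07 (SE; adjusted p = 0.0324). PIG-T, a subunit of the transamidase that attaches the anchor, was at 10.05, 9.61, 9.69 and 9.64 against 9.33, 9.39, 9.39 and 9.38, and rose by 0.38 ± 0.10 (adjusted p = 0.0391). These calls held in 11 and 12 of 19 settings. PIG-A was lost without SceI48A replicate 1, 2 or 4 or wild-type replicate 2, 3 or 4, and PIG-T without SceI48A replicate 3 or any 1 wild-type embryo, and both without the filter on low values and with the replicate block. PIG-B, a mannosyltransferase, differed by 0.37 without passing (adjusted p = 0.0549). In Asx0 the differences of PIG-A, PIG-T and PIG-B were 0.09, 0.13 and 0.22 (adjusted p = 0.383, 0.304 and 0.107), and that of PIG-N, an ethanolamine phosphate transferase, was -0.20 (adjusted p = 0.0831).

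Of 4 tested genes of p24 cargo and Wnt secretion, wg (Wingless itself) fell in Asx0, at 8.44, 8.64, 8.60, 8.65 and 8.40 against 8.92, 8.74 and 8.85. It fell by 0.29 ± 0.07 (SE; limma, adjusted p = 0.0293), a call that held in 12 of 19 settings. It was lost without Asx0 replicate 1 or 5, without wild-type replicate 1 or 3, without the filter on low values, with the replicate block and with the msl-2 minus Sxl covariate. In SceI48A wg spread from 9.14 to 10.08 around wild type (9.36 to 9.72), with a difference of 0.04 (adjusted p = 0.9). tkv, the Dpp receptor gene, was at 11.23 to 11.35 in Asx0 against at most 11.15 in wild type, a difference of 0.14 that did not pass (adjusted p = 0.0831), and it differed by -0.08 in SceI48A (adjusted p = 0.541). The 2 other p24-like genes of the genome, CG9308 and CG31787, had authors' means under 10 and were not tested.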

How the data were processed

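Poly(A) RNA of single embryos was sequenced by the authors as paired reads of 42 bases and quantified with Salmon on release 6.35 transcripts, and counts were summed per gene and normalised with DESeq2. Embryos had been selected by the authors by principal components and morphology. Each deposited table gives log2 normalised counts per embryo, which the authors' transformation had shrunk (the method is not given in the sources used here), and a deposited mean normalised count per gene, a linear signal without library totals. Columns of fold changes, test statistics and p-values from the authors' own comparison were not used. The 2 tables were normalised separately and tested separately. Genes with a mean of at least 10 were fitted with limma 3.58.1 in R 4.3.3 (lmFit, eBayes with a variance trend, no covariate), and p-values were adjusted by Benjamini-Hochberg over all genes tested, with calls at 0.05. The fit was tested on simulated data. Gene models came from the Ensembl annotation of the release 6 assembly, which may differ from release 6.35, and 32 gene IDs had no symbol. The kit (NEBNext Ultra II RNA, not the directional version) does not mark strand. Members and lists were chosen with earlier results of these data known. Named genes were all 7 members, the 2 nearest genes on each side of p24-2, the 5 genes most correlated with p24-2, and per list up to 3 called genes and 1 not called by adjusted p. One listed symbol, PIG-W, was not matched. Alternatives were other filters, variance models, scalings and pseudocounts, a replicate block, a covariate of msl-2 minus Sxl, each embryo left out and, added after the data were seen, p24-2 and Unc-115b summed.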

Additional observations from a re-analysis of the deposited data

Results flagged for a closer look

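Within each group of 4 or 5 embryos, the highest or lowest value was compared with the others by Dixon's ratio of gap to range at the 95% level, for the 6 members other than p24-2 and for the genes near p24-2. Chance sets apart about 1 in 20 groups, and 5 of 65 were set apart here. SceI48A replicate 1 was high for CG32939, at 4.96 against 4.01 to 4.02. In the wild type of the SceI48A table, replicate 1 was high for Pnn (9.34 against 8.96 to 8.99) and dmt (8.82 against 8.76 to 8.77) and low for hyd (12.07 against 12.40 to 12.45). Asx0 replicate 2 was low for dmt, at 8.15 against 8.24 to 8.25.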

How the results depend on the processing

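None of the 6 members other than p24-2 passed the test in any of 228 pairs of member and setting (lowest adjusted p 0.145), and the sign of a small difference changed in 6 of these in Asx0 and 5 in SceI48A. The p24-2 difference ranged from 2.79 to 3.89 in Asx0 and from 2.51 to 3.64 in SceI48A with 1 embryo left out. In the other settings it ranged from 2.27 to 3.36 and from 2.87 to 2.98. With p24-2 and Unc-115b summed, the difference was 2.32 in Asx0 and 2.63 in SceI48A. p24-2 was chosen for its rise in these same embryos, so its differences in all settings are a description and no separate evidence. The count of pathway genes called in SceI48A (2) was 0 without the filter on low values and 0 to 2 with 1 embryo left out. The count near p24-2 in SceI48A (1, Unc-115b) was 0 without the filter, with robust variances and without a variance trend, and 0 to 1 with 1 embryo left out. Over all genes, calls in Asx0 (1158) were 749 with the msl-2 minus Sxl covariate. Calls in SceI48A (776) were 421 without the filter and 1178 with embryo weights, and with 1 embryo left out ranged from 390 to 658, with 479 without SceI48A replicate 2 and 390, 459 and 479 without wild-type replicate 2, 3 and 4. With no filter more genes were tested (13754). For the other settings the cause was not tested. Replicate numbers are shared by mutant and wild-type embryos, but same-numbered embryos did not deviate together (r = 0.156, 0.064 and -0.089 in the Asx0 table, and -0.13, -0.0254, -0.0809 and 0.107 in the SceI48A table), and not every embryo correlated best with its own number. With a replicate block, calls over all genes were 654 in Asx0 and 446 in SceI48A, pathway calls were 2 in Asx0 (4 without it) and 0 in SceI48A (2 without it), members called stayed at 0, and the p24-2 differences were 2.96 and 2.95. The tables hold no totals, so counting error could not be given.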
